A study of Mus musculus with 12 samples.

Results

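The transcription factor genes Cebpa, Cebpb, Cebpd, Cebpe, Spi1, Gfi1, Irf8, Runx1 and Myb were followed across 12 gene arrays of mouse bone marrow myeloid progenitors. The genes were chosen with earlier results of these data known, and their probe sets were taken by gene symbol alone. Each of the 9 symbols belonged to exactly 1 of the 35556 probe sets, and these 9 genes were among the 19938 genes tested. The cells were c-Kit+ marrow progenitors of mice given tamoxifen, 5 mg by gavage each day. All 4 groups carried CreER, whose recombinase needs tamoxifen to act, and all received tamoxifen. Zfx encodes a zinc finger protein that binds DNA; the wt/y mice had an intact copy of it, and the fl/y mice a copy flanked by the sites that Cre recombines. Cells of each genotype were infected either with a retrovirus carrying Myc and GFP or with a control GFP virus, grown with IL-3, IL-6 and SCF (10 ng/mL each), sorted as GFP+ after 48 h and cultured for 4 more days. The groups, with 3 arrays each, are called GFP wt, GFP ko, Myc wt and Myc ko. The labels do not say whether the 3 replicates of a group came from separate animals, so p-values measure the spread between these arrays, which may be technical. The promoter that drives CreER was not given in the sources used here.

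Myeloid cells are made from progenitors under a small set of transcription factors. Runx1 and Myb act in stem cells and early progenitors, Spi1 (which encodes PU.1, an ETS factor) and Cebpa commit cells to the myeloid lineages, and Cebpe and Gfi1 (a transcriptional repressor) are needed for neutrophils to mature. Irf8 favours monocytes and dendritic cells over neutrophils. Cebpb is known for granulocyte production under stress and for macrophages, and Cebpd is induced as granulocytes mature.

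The samples were checked before the members were compared. Myc rose 1.74-fold with the Myc virus in wt cells and 1.87-fold in ko cells (limma adjusted p = 7.24e-04 and 3.42e-04). The Zfx probe set was not lower in the arrays labelled ko: its mean intensity was 946 ± 72.9 (SD, n = 3) in GFP wt and 1021 ± 64.9 in GFP ko, and 992 ± 26.4 in Myc wt and 1048 ± 63.2 in Myc ko. Where its probes lie relative to the floxed part was not examined here, so ko below means the arrays labelled Zfx ko. Summed intensities of 11 neutrophil markers ran from 68163 to 86725 on the 6 GFP arrays and from 34646 to 51323 on the 6 Myc arrays. B cell and T or NK cell markers lay mostly below the array median, 6 of 8 and 7 of 8 of them on all 12 arrays. Array medians lay between 127 and 137, and correlations between arrays of a group between 0.985 and 0.993.

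The RefSeq promoter table used here held windows for 6 of the 9 genes, 9 windows in all; Cebpd, Cebpe and Spi1 were not analysed for motifs. The 250 bases upstream of each start were searched on both strands for 7 motifs. Windows of Cebpa, Gfi1 and Myb are shown because these 3 genes varied together over the arrays, and that of Runx1 because it held the only E-box, the motif bound by Myc with its partner Max. Each is written 5′ to 3′ on the gene's strand (build GRCm38.p6), with motif matches in capitals.
Cebpa, chr7:35119043-35119292, plus strand: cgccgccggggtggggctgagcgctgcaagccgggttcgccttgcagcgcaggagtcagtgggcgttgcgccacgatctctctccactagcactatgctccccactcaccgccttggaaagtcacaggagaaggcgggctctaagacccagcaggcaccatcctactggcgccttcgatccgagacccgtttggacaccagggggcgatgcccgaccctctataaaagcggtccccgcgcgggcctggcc
Gfi1, chr5:107725806-107726055, minus strand: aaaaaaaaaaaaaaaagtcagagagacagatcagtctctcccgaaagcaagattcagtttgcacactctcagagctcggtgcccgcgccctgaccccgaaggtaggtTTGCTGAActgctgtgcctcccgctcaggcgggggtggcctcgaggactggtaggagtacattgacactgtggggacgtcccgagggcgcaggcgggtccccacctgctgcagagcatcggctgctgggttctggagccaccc
Myb, chr10:21160985-21161234, minus strand: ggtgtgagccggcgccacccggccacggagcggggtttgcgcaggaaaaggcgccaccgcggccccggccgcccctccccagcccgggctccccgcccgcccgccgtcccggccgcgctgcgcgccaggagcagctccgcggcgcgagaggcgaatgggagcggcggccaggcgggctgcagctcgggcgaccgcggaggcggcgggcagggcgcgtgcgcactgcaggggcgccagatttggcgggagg
Runx1, chr16:92826075-92826324, minus strand: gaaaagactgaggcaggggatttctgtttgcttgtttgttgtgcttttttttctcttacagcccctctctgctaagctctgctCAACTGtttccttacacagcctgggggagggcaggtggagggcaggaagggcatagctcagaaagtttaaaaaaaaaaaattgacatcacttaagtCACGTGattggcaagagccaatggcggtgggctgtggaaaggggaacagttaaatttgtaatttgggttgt

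The Gfi1 window held 1 match to the C/EBP motif (TTGCNNAA), from -143 to -136 relative to the start. The Runx1 window held 1 E-box (CACGTG), from -71 to -66, and 1 Myb motif (CAACTG), from -167 to -162. The other window of Gfi1, the other of Runx1 and the only ones of Cebpa, Cebpb and Myb held no match to any of the 7 motifs. Irf8 had 1 match to the Gfi1 motif (AAATCAC), on the minus strand from -176 to -170 of the first of its windows. None of the 9 windows held the motif of PU.1 (GAGGAAG), of Runx factors (TGTGGT) or the composite motif of PU.1 with Irf8, and no matches overlapped each other. Among all 32851 windows of the same length, the E-box was found in 6.02%, the C/EBP motif in 9.56%, the Myb motif in 11.1%, the Gfi1 motif in 2.75%, the PU.1 motif in 10.6%, the Runx motif in 14% and the composite motif in 2.3%. A match describes the letters of a window and was not linked to binding here.

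**Figure D1:**
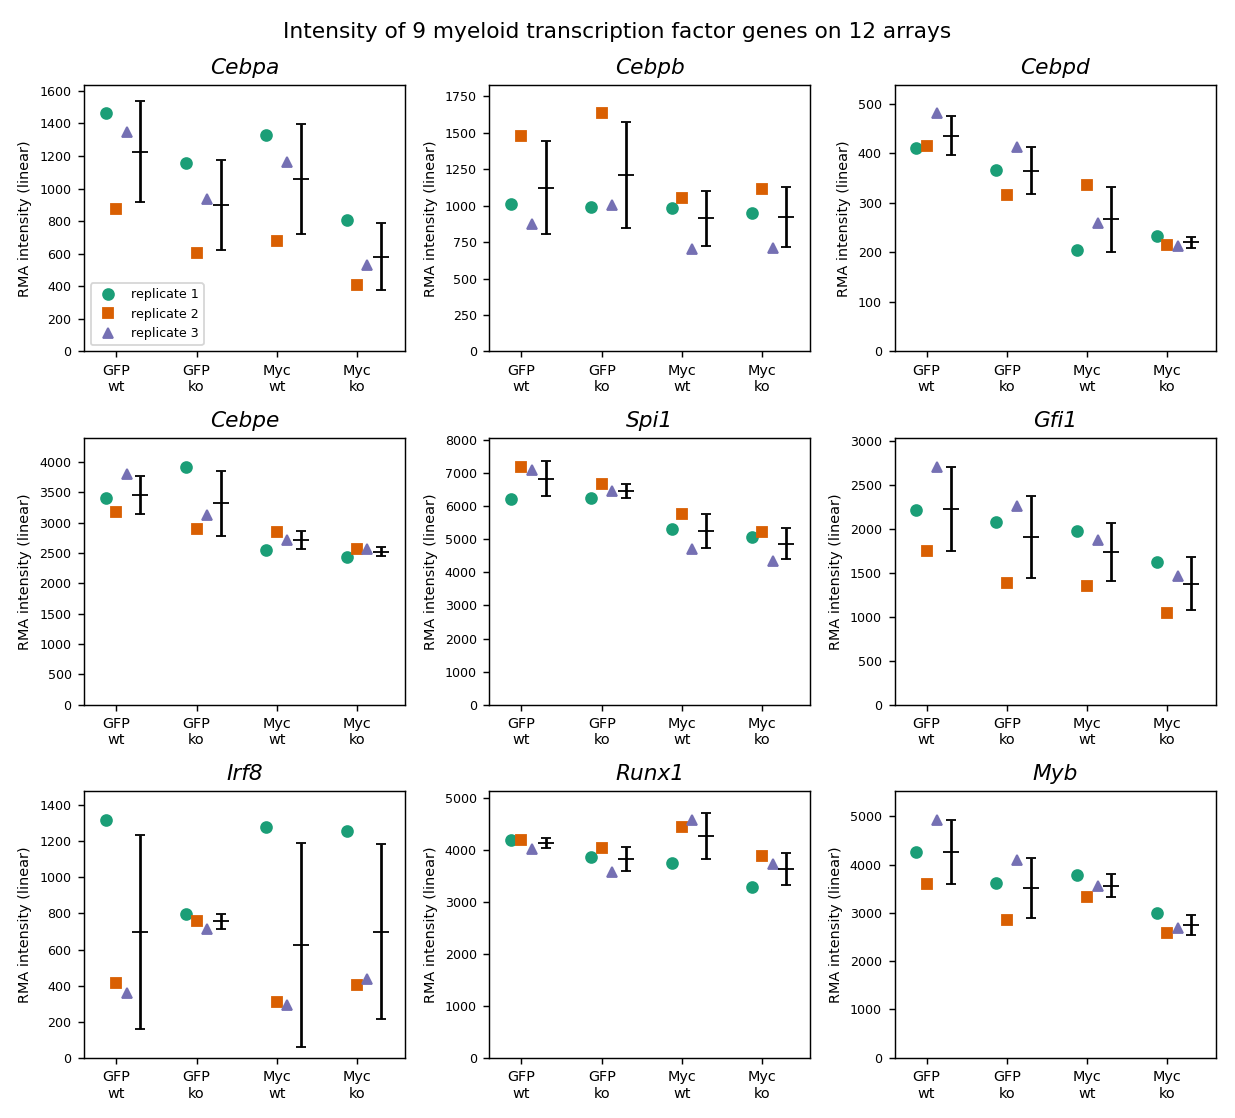
RMA intensity (linear scale, vertical axes from 0) of the 9 genes on each array, by group on the horizontal axis; symbols and colours mark replicates 1, 2 and 3, and the bar beside each group is the mean ± SD of 3 arrays. Cebpd, Cebpe and Spi1 lie lower on all Myc arrays than on all GFP arrays of the same genotype, and Irf8 is high on 3 of the 4 replicate 1 arrays.

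The first question was how the factors differed with the Myc virus in cells that kept Zfx. Cebpd and Spi1 fell, Cebpe and Gfi1 fell in the fit that took the replicate number into account, and no member rose. With limma over all 19938 genes, 2 of the 9 members passed the threshold (adjusted p under 0.05), both lower, where 9.28% of all genes passed, 3.11% lower and 6.17% higher. Arrays that share a replicate number varied together across groups in these data. With the replicate number as a block 4 members passed, all lower, where 20.5% of all genes passed, 8.25% lower and 12.2% higher. The median log2 difference of the 9 members was -0.28, and that of all genes 0.0036.

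In the same comparison of ko cells, 3 of the 9 members fell, Cebpd, Cebpe and Spi1, where 13.2% of all genes passed, 4.59% lower and 8.58% higher. With the replicate block 7 members fell, all except Irf8 and Runx1, and none rose, where 24.9% of all genes passed, 10.4% lower and 14.5% higher. Their median log2 difference was -0.38 beside 0.0061 for all genes. Arrays did not overlap between the viruses for Cebpd, Cebpe and Spi1 in either genotype, where 9.44% (wt) and 9.88% (ko) of all genes did not overlap and were lower. In same-numbered pairs, 8 members were lower in 3 of 3 pairs in wt and 7 in ko, against 23.1% and 21.6% of all genes. These are RNA levels of whole cultures, so fewer cells of a type and less RNA per cell cannot be told apart. Markers of several cell types moved on the same Myc arrays. Of 11 neutrophil markers, 7 fell in wt and 8 in ko (10 and 11 with the block), and of 13 mast cell and basophil markers, 6 fell in each (7 and 8) and 1 rose in wt. Of 11 monocyte and macrophage markers, 2 fell in wt and 1 in ko (4 and 7 with the block), and of 9 erythroid markers, 1 rose in wt and 5 in ko (3 and 7). Of 7 megakaryocyte markers, none passed without the block, and with it 1 fell in wt and 3 in ko. Their sums were 7855 to 14765 in GFP wt, 2266 to 7887 in Myc wt, 22225 to 28935 in GFP ko and 6068 to 17836 in Myc ko. Of 7 eosinophil markers, only 1 passed, lower in ko with the block. The part of all these markers in the members' differences was not tested.

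Cebpd, a C/EBP factor of maturing granulocytes, had intensities of 410, 415 and 480 in replicates 1, 2 and 3 of GFP wt and of 205, 336 and 260 in Myc wt. In GFP ko the values were 367, 316 and 412, and in Myc ko 234, 214 and 212. Every Myc array lay below every GFP array of its genotype, and the Myc ko arrays lay close together. Among the tested genes Cebpd lay at percentiles 53.8 to 60.7 on the Myc arrays and 59.8 to 66.9 on the GFP arrays. Such modest intensities may limit its folds. Cebpd fell 1.66-fold with Myc in wt (log2 difference -0.73 ± 0.16 SE, 95% interval of the fold 1.30 to 2.12, limma adjusted p = 0.0176). It fell 1.65-fold in ko (-0.72, interval 1.29 to 2.11, adjusted p = 0.0141). Without replicate 3 of GFP wt or of Myc wt the wt call was lost (adjusted p = 0.0783 and 0.0644), as it was in ko without replicate 3 of GFP ko or of Myc ko (0.0550 and 0.0568). Without replicate 1 or replicate 3 of all groups both calls were lost as well (adjusted p from 0.0666 to 0.327).

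Spi1, the gene for PU.1, measured 6223, 7202 and 7099 in GFP wt and 5300, 5757 and 4716 in Myc wt. It measured 6252, 6681 and 6480 in GFP ko and 5058, 5232 and 4332 in Myc ko. The viruses did not overlap in either genotype, and the spread within GFP ko was the smallest of the 4 groups (SD 215). Spi1 fell 1.30-fold in wt (log2 difference -0.38 ± 0.09 SE, interval 1.13 to 1.51, limma adjusted p = 0.0301) and 1.33-fold in ko (-0.41, interval 1.15 to 1.54, adjusted p = 0.0166). The wt call was lost without replicate 2 or 3 of GFP wt or without replicate 1 or 3 of Myc wt (adjusted p 0.0761 to 0.127), and without any 1 replicate number in all groups (0.0693 to 0.352). The ko call was lost without replicate 3 of Myc ko (0.0680), and without replicate 1 or 3 of all groups (0.0998 and 0.179).

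Cebpe, the factor needed for the late granules of neutrophils, measured 3400, 3181 and 3791 in GFP wt against 2554, 2847 and 2719 in Myc wt. In GFP ko the values were 3920, 2894 and 3127, and in Myc ko 2432, 2560 and 2563. Again the viruses did not overlap, and replicate 1 of GFP ko was the highest array. Cebpe fell 1.31-fold in ko (log2 difference -0.38 ± 0.11 SE, interval 1.11 to 1.54, limma adjusted p = 0.0382). In wt it was 1.28-fold lower (log2 difference -0.35, interval -0.59 to -0.12, limma adjusted p = 0.0698), which passed with the replicate block (0.0427). The ko call held in 1 of the 6 fits that left out an array, without replicate 2 of GFP ko. It was lost without replicate 1 or 3 of GFP ko and without each of the 3 Myc ko arrays (adjusted p 0.0645 to 0.100), and without replicate 1 or 3 of all groups (0.271 and 0.244).

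The late neutrophil genes were the list in which most genes moved with the Myc virus. Whether each of them needs Cebpe was not examined here. Of 18 measured genes, 9 fell and none rose in wt, and 12 fell and none rose in ko, with median log2 differences of -0.92 and -0.94. In the fit with the block 16 of the 18 fell in wt and 17 in ko. Of all genes, 3.11% and 4.59% fell without the block, and 8.25% and 10.4% with it. Cybb, a subunit of the oxidase that makes superoxide, fell 2.06-fold in wt and 2.00-fold in ko (limma adjusted p = 0.00162 and 0.00104). Lcn2, which binds bacterial siderophores, fell 1.56-fold and 1.40-fold (adjusted p = 0.00120 and 0.00169). Ltf, the gene for lactoferrin, fell 3.10-fold in wt (adjusted p = 0.0195), and Mmp9, a gelatinase of neutrophil granules, fell 7.56-fold in ko (adjusted p = 0.0143). Of the 11 neutrophil markers summed above, all but Itgam are on this list, so the list and that sum are not independent.

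Primary granule genes, which depend on Cebpa, Spi1 and Myb in earlier progenitors, gave 1 of 8 genes lower in wt and 2 of 8 in ko, with median log2 differences of -0.17 and -0.26. The 8 include Bpi, whose group means of 41.8 to 43.4 lie below every array's median. Other lists count such dim genes too, among them Flt3 (72.9 to 79.2) and Prok2 (64.7 to 71.8). In the fit with the block 3 and 5 of the 8 fell, where 8.25% and 10.4% of all genes fell (3.11% and 4.59% without the block). Ms4a3, a membrane protein of granulocyte and monocyte progenitors, fell 1.27-fold and 1.33-fold (limma adjusted p = 0.0136 and 0.00444), and Cst7, a cystatin, fell 1.70-fold in ko (adjusted p = 5.85e-04). Mpo, the myeloperoxidase gene, had log2 differences of -0.18 and -0.27 (adjusted p = 0.468 and 0.175), the second of which passed with the replicate block (0.0186). Of 9 measured receptor genes known as targets of C/EBP factors and PU.1, only Itgam passed without the block, 2.49-fold lower in wt and 2.24-fold lower in ko (adjusted p = 7.10e-04 and 6.03e-04). With the block 3 of the 9 fell in each genotype. Csf3r, the G-CSF receptor, differed by -0.77 on the log2 scale in each genotype (adjusted p = 0.429 and 0.386), and it passed with the replicate block (0.00912 and 0.00721). Csf1r, the M-CSF receptor, passed neither fit in either genotype.

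**Figure D2:**
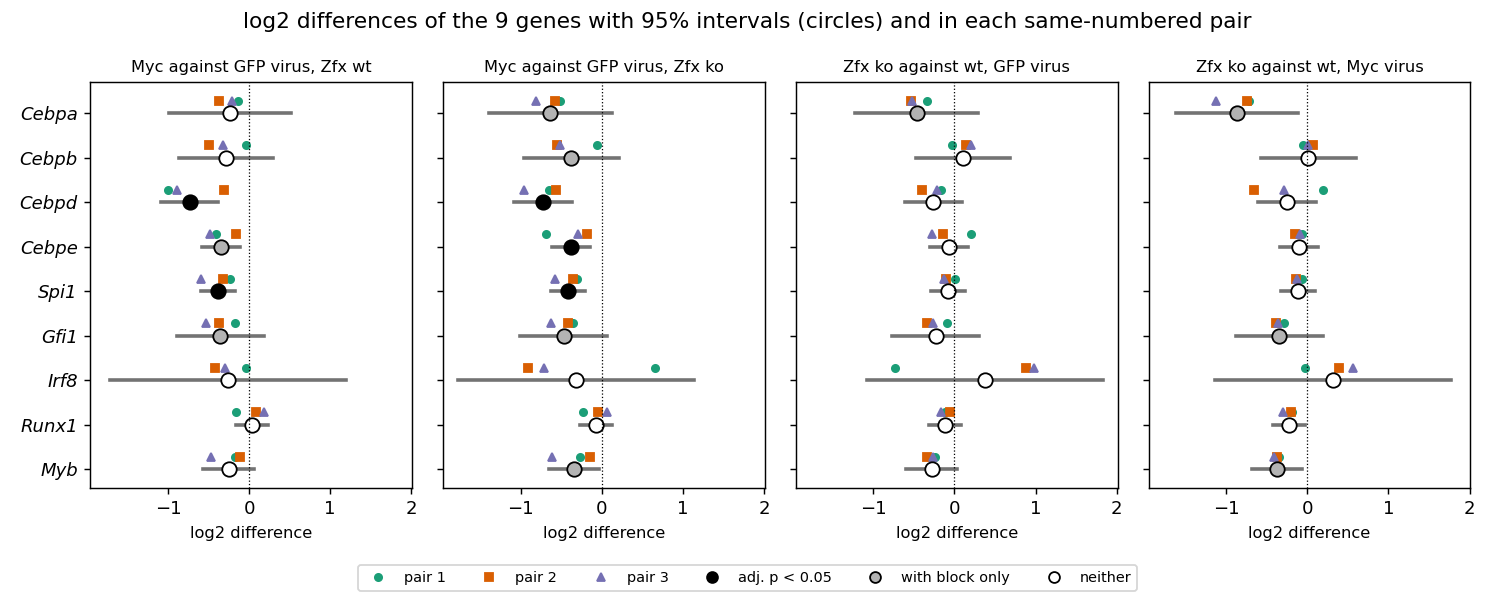
Log2 difference of each member in the 4 comparisons (horizontal axes), with its 95% interval from the fit over all 12 arrays (circles and lines) and in each same-numbered pair (small symbols above). Filled circles passed an adjusted p of 0.05, grey circles passed with the replicate block only; all filled and grey circles lie to the left of 0.

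Cebpa is the C/EBP factor of early granulocyte and monocyte progenitors. Its intensities in replicates 1, 2 and 3 were 1460, 876 and 1344 in GFP wt, 1156, 605 and 935 in GFP ko, 1331, 680 and 1166 in Myc wt and 807, 406 and 533 in Myc ko. Replicate 2 was the lowest in every group and Myc ko the lowest group for every replicate number, and GFP and Myc arrays of the same genotype overlapped. Myc was lower than GFP by 1.55-fold in ko (log2 difference -0.63 ± 0.34 SE, limma adjusted p = 0.318). With the replicate block the same difference had an SE of 0.086 and an adjusted p of 7.79e-04. In wt the difference was -0.23, with an adjusted p of 0.861 and, with the block, of 0.0891.

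Gfi1, the repressor needed for neutrophil maturation, measured 2217, 1748 and 2708 in GFP wt, 2080, 1385 and 2260 in GFP ko, 1974, 1355 and 1874 in Myc wt and 1620, 1038 and 1464 in Myc ko. Replicate 2 was again the lowest in each group, and GFP and Myc arrays of the same genotype overlapped. Gfi1 was 1.28-fold lower with Myc in wt (limma adjusted p = 0.523, with the block 0.0116) and 1.38-fold lower in ko (0.291, with the block 0.00237). Without replicate 2 of all groups the ko difference of -0.49 passed without a block (adjusted p = 0.0365).

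Myb, a regulator of progenitor proliferation, measured 4262, 3599 and 4927 in GFP wt, 3613, 2850 and 4094 in GFP ko, 3794, 3323 and 3564 in Myc wt and 2989, 2578 and 2686 in Myc ko. Replicate 2 was the lowest array of each group. With Myc it was 1.27-fold lower in ko (log2 difference -0.34, limma adjusted p = 0.161, with the replicate block 0.0206). In wt it was 1.19-fold lower and passed neither fit (0.392, with the block 0.0859). Without replicate 2 of GFP ko the ko difference grew to -0.49 and passed (adjusted p = 0.0363), as it did without replicate 2 of all groups (-0.44, 0.0434).

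Cebpb differed by replicate number in another order. It measured 1011, 1481 and 876 in GFP wt, 992, 1632 and 1008 in GFP ko, 984, 1055 and 700 in Myc wt and 950, 1111 and 707 in Myc ko. Replicate 2, the lowest for Cebpa, Gfi1 and Myb, was the highest for Cebpb in every group. With Myc it was 1.30-fold lower in ko (limma adjusted p = 0.503, with the replicate block 0.0279) and 1.22-fold lower in wt (0.711, with the block 0.0978).

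Runx1, a partner of Cbfb in early progenitors, passed neither fit with the virus. It measured 4184, 4190 and 4012 in GFP wt, 3748, 4444 and 4573 in Myc wt, 3863, 4023 and 3572 in GFP ko and 3288, 3882 and 3727 in Myc ko. The log2 difference with Myc was 0.04 in wt (95% interval -0.16 to 0.23, limma adjusted p = 0.926) and -0.07 in ko (-0.27 to 0.12, 0.768). The groups overlapped in both genotypes, and the intervals leave room for changes of either sign.

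Irf8, the monocyte and dendritic cell factor, passed neither fit with the virus. Its intensities were 1319, 413 and 362 in GFP wt, 796, 759 and 715 in GFP ko, 1280, 308 and 294 in Myc wt and 1258, 405 and 436 in Myc ko. Replicate 1 lay far above replicates 2 and 3 in GFP wt, Myc wt and Myc ko, whereas the 3 arrays of GFP ko lay together. The log2 difference with Myc was -0.26 in wt and -0.32 in ko (SE 0.66 each, limma adjusted p = 0.937 and 0.896). In ko the pairs went different ways, 0.66 in replicate 1 against -0.90 and -0.71. Without replicate 1 of all groups the ko difference was -0.81 (adjusted p = 0.0238), so the result depends on that replicate.

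Markers of the cell types that Irf8 favours were set beside it. The summed intensity of 11 monocyte and macrophage markers in replicates 1, 2 and 3 was 23871, 19317 and 18198 in GFP wt, 24879, 24395 and 23798 in GFP ko, 17204, 11000 and 9753 in Myc wt and 19905, 17268 and 13249 in Myc ko. It was highest in replicate 1 of each group, and none of the 11 markers lay below the array median on all 12 arrays. Lyz2, the lysozyme gene, made up much of the sum, with a mean of 11140 over the 4 replicate 1 arrays against 8604 and 8923 in replicates 2 and 3. By such means 6 of the 11 markers were highest in replicate 1, whereas Cd14, Cd68 and Adgre1 were highest in replicate 2 and F13a1 and Cx3cr1 in replicate 3. The summed dendritic cell markers did not follow Irf8: they were 5786 to 17304 in replicate 2 and at most 2223 in replicates 1 and 3. In replicate 2 this sum was mostly Cd74, H2-Aa, H2-Ab1 and H2-Eb1, with means of 2801, 2932, 2117 and 1270, so it describes mainly these genes. Flt3, Siglech, Xcr1, Zbtb46 and Clec9a lay below the array median on all 12 arrays. The part of the monocyte markers in the Irf8 differences was not tested.

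**Figure D3:**
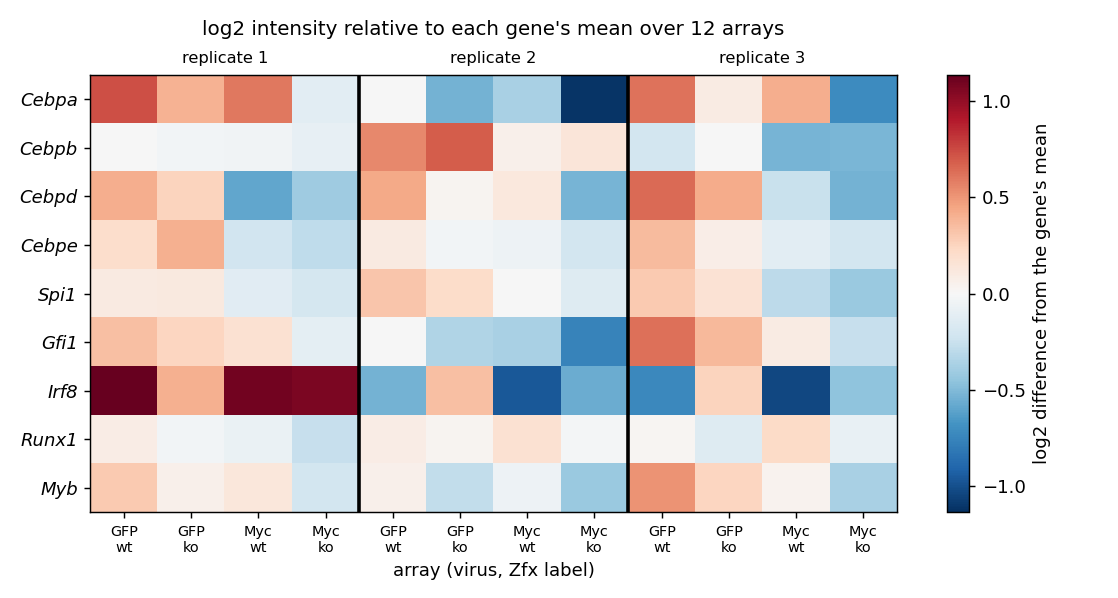
Log2 intensity of each member (rows) on each array (columns, grouped by replicate number) minus the gene's mean over 12 arrays; red is above and blue below the mean. Irf8 is highest on replicate 1 arrays, Cebpb on replicate 2 arrays, and Cebpa and Gfi1 are lower on replicate 2 than on the other arrays of each group.

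The second question was how the members differed with the Zfx label, first with the GFP virus. None of the 9 members passed the threshold, where 4.11% of all genes did, 2.94% lower and 1.17% higher, and none of the 9 had an unadjusted p under 0.05, against 2913 genes. With the replicate block 1 member passed, lower, where 12.2% of all genes passed, 7.12% lower and 5.12% higher. That was Cebpa, 1.38-fold lower in ko (log2 difference -0.46, limma adjusted p = 0.679, with the block 0.00723), with pair differences of -0.34, -0.53 and -0.52. The median over the 9 members was -0.11 beside -0.0049 for all genes, and 5 members were lower in 3 of 3 pairs against 24.0% of all genes. No member had ko arrays that all lay below its wt arrays, where 10.5% of all genes had.

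Runx1, Gfi1, Myb and Cebpd were lower in 3 of 3 pairs with the GFP virus without passing either fit. Myb had a log2 difference of -0.28 (limma adjusted p = 0.422, with the block 0.0782) and Gfi1 of -0.23 (0.829, with the block 0.100). Spi1 and Cebpe differed by -0.08 and -0.07, with 95% intervals of -0.29 to 0.13 and -0.30 to 0.17. Cebpb was 0.10 higher with an interval of -0.48 to 0.69. Irf8 was 0.38 higher, from pairs of -0.73, 0.88 and 0.98 (adjusted p = 0.929), and without replicate 1 of all groups it was 0.93 higher with an adjusted p of 0.0131.

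With the Myc virus the Zfx comparison again gave no member past the threshold, where 5.46% of all genes passed, 3.72% lower and 1.74% higher. Here 3 members, Cebpa, Runx1 and Myb, had an unadjusted p under 0.05, against 3156 genes. With the replicate block 3 members passed, Cebpa, Gfi1 and Myb, all lower, where 14.1% of all genes passed, 8.03% lower and 6.05% higher. The median over the 9 members was -0.23 beside -0.0012 for all genes, and 6 members were lower in 3 of 3 pairs against 24.3% of all genes.

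Cebpa showed the widest of these differences, 1.82-fold lower in Myc ko than in Myc wt (log2 difference -0.86 ± 0.34 SE, 95% interval of the fold 1.08 to 3.07, limma adjusted p = 0.227). Its pairs differed by -0.72, -0.74 and -1.13, and with the replicate block its adjusted p was 2.43e-04. Myb was 1.29-fold lower (pairs -0.34, -0.37 and -0.41, adjusted p = 0.200, with the block 0.0228). Myb was the only member whose ko arrays all lay below its wt arrays, where 11.1% of all genes had such arrays. Gfi1 was 1.27-fold lower (pairs -0.29, -0.39 and -0.36, adjusted p = 0.642, with the block 0.0189).

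Runx1 was 1.17-fold lower in Myc ko (log2 difference -0.23, 95% interval -0.42 to -0.03), with pairs of -0.19, -0.20 and -0.30, and passed neither fit (limma adjusted p = 0.217, with the block 0.0821). Spi1 and Cebpe differed by -0.11 and -0.10 and Cebpb by 0.01, with intervals that held 0. Cebpd differed by -0.25, from pairs of 0.19, -0.65 and -0.29. Irf8 was 0.31 higher (adjusted p = 0.957), and without replicate 1 of all groups 0.48 higher (adjusted p = 0.0546).

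Summed mast cell and basophil markers were lower in ko on every same-numbered pair, 5271 to 9412 in Myc ko against 10656 to 25890 in Myc wt, and 13338 to 18667 in GFP ko against 23825 to 30284 in GFP wt. Summed megakaryocyte markers ran the other way, 22225 to 28935 in GFP ko against 7855 to 14765 in GFP wt, and 6068 to 17836 in Myc ko against 2266 to 7887 in Myc wt. Summed erythroid markers were 8001 to 13234 in Myc ko against 5168 to 6566 in Myc wt, with 4 of 9 markers higher (7 with the block), and 5556 to 6523 in GFP ko against 4588 to 5720 in GFP wt. Of all genes, 1.74% were higher in Myc ko than in Myc wt (6.05% with the block). With the GFP virus these shares were 1.17% and 5.12%. Summed neutrophil markers and summed monocyte and macrophage markers were higher in ko in every same-numbered pair. Neutrophil sums were 71110 to 86725 in GFP ko against 68163 to 81000 in GFP wt, and 44064 to 51323 in Myc ko against 34646 to 47784 in Myc wt. In the same order, monocyte sums were 23798 to 24879 against 18198 to 23871, and 13249 to 19905 against 9753 to 17204. Without the block 1 of 11 neutrophil markers was higher with each virus, and no monocyte marker passed. The part of these markers in the differences of Cebpa, Gfi1 and Myb was not tested.

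The interaction asked whether the Myc difference itself differed between the genotypes. No member and none of the 19938 genes passed with limma (0%), although 343 genes and 0 members had an unadjusted p under 0.05. With the replicate block 0 members and 1 gene (0.00502%) passed. Cebpa had the widest estimate, a log2 difference of -0.40 ± 0.48 SE without the block, so the Myc differences of -0.23 in wt and -0.63 in ko were not shown to differ. Comparisons that use the same group share its arrays, and their values are given side by side only.

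**Figure D4:**
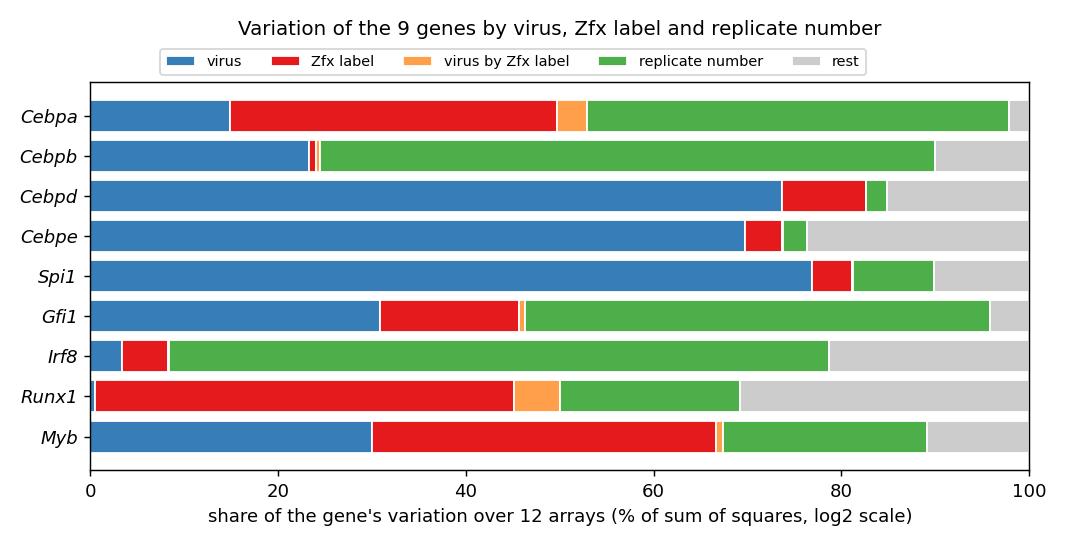
Share of each member's sum of squares over 12 arrays (log2 scale, horizontal axis in percent) that went with virus, Zfx label, virus by Zfx label, replicate number and the rest. Virus takes most of the bar for Cebpd, Cebpe and Spi1, replicate number for Cebpb and Irf8, and Zfx label takes its longest stretch for Runx1.

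The members fell into different patterns when their variation over the 12 arrays was divided by virus, Zfx label and replicate number. Virus took 76.9% of the sum of squares of Spi1, 73.7% of that of Cebpd and 69.8% of that of Cebpe, where the median over all genes was 10.1%. Replicate number took 70.3% for Irf8, 65.5% for Cebpb, 49.6% for Gfi1 and 44.9% for Cebpa (median of all genes 28.0%). The Zfx label took 44.6% for Runx1, 36.6% for Myb and 34.8% for Cebpa (median 7.02%). The whole range over the arrays was widest for Irf8, 2.17 on the log2 scale, then Cebpa with 1.85, and narrowest for Runx1 with 0.48.

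Pairs of members were compared by Pearson's correlation of log2 values, over 12 arrays that share groups and replicate numbers, as a description. Gfi1 and Myb had r = 0.92, Cebpa and Gfi1 0.91 and Cebpa and Myb 0.88. Cebpd had 0.87 with both Cebpe and Spi1, and Cebpe and Spi1 had 0.75. Irf8 and Runx1 had -0.59, the lowest of the 36 pairs.

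The 3 genes most like each member were found by the same measure among 10136 genes with a mean above the median of all probe sets. Genes had first been left out by their symbols, by patterns for predicted, microRNA, small nucleolar RNA and olfactory receptor genes. The patterns also left out every symbol starting with Rn. For Spi1 they were Tmem38b (r = 0.97), Tom1 (0.97) and Msn (0.97), and for Cebpd Pglyrp1, a neutrophil peptidoglycan recognition protein (0.97), Strn (0.96) and Capns1 (0.96). For Cebpe they were Atg9a (0.96), Capn1 (0.96) and Gsdme (0.96). Gfi1 was most like Csf3r (0.98), Tnfrsf14 (0.98) and Lta4h (0.98), the last an enzyme of leukotriene synthesis. Cebpa was most like Glis3 (0.97), Adssl1 (0.96) and Bace1 (0.96), and Myb most like Nin (0.99), Tbc1d2b (0.99) and Vps37c (0.97). Cebpb was most like Plekha8 (0.98), Ptpn1 (0.97) and Tbc1d2 (0.96). Irf8 had Rassf4 (0.94), Pld4 (0.91) and Hopx (0.91), and Runx1 had Aff4 (0.92), Cyp11a1 (0.90) and Aqp9 (0.89).

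Relatives and partners of the members were then counted by list, beside the shares of all genes that passed. With Myc these were 6.17% higher and 3.11% lower in wt, and 8.58% and 4.59% in ko. The block made them 12.2% and 8.25%, and 14.5% and 10.4%. With the Zfx label they were 1.17% and 2.94% with GFP, and 1.74% and 3.72% with Myc. The block made them 5.12% and 7.12%, and 6.05% and 8.03%. Many of the small counts below lie near these shares, and such counts are no result about a list. Of 10 measured relatives and partners of C/EBP factors only Trib3, a pseudokinase of the Tribbles family, passed without the block, 1.29-fold higher in Myc ko than in Myc wt (limma adjusted p = 0.0358). With the block 1 rose and 1 fell with Myc in wt, 1 rose and 3 fell in ko, 2 were higher in GFP ko, and 1 was higher and 1 lower in Myc ko. Of 11 ETS relatives of Spi1, Elf4 fell 1.24-fold with Myc in wt (adjusted p = 0.0265), and in ko Erg fell 1.62-fold, Elf4 1.22-fold and Etv6 1.19-fold (0.0126, 0.0268 and 0.0449). With the block 5 of the 11 fell with Myc in each genotype. In the Zfx comparisons no ETS relative passed without the block, and with it Ets1 passed in both, 1.42-fold lower in GFP ko and 1.43-fold lower in Myc ko (0.0426 and 0.0372 with the block, 0.154 and 0.131 without). Of 7 other Irf genes, Irf3 was 1.14-fold lower in GFP ko than in GFP wt (adjusted p = 0.0497) and none passed in the other 3 comparisons without the block. With it 2 fell with Myc in wt, 1 rose and 3 fell in ko, and 1 was higher in Myc ko than in Myc wt.

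Among 8 relatives and partners of Runx1 and Myb, Mybl2, a cell cycle relative of Myb, moved with both factors of the design. It was 1.25-fold higher with Myc in wt and 1.19-fold higher in ko (limma adjusted p = 0.0128 and 0.0284), and it was 1.32-fold lower in GFP ko and 1.39-fold lower in Myc ko than in wt (0.00611 and 0.00235). Its mean intensity was 1391 ± 67.6 (SD, n = 3) in GFP wt, 1052 ± 75.3 in GFP ko, 1731 ± 41.1 in Myc wt and 1249 ± 51.0 in Myc ko. Runx3, a relative of Runx1, fell 1.44-fold with Myc in ko and was 1.95-fold lower in Myc ko than in Myc wt (0.0241 and 0.00235). Cbfb, the partner subunit of Runx factors, was 1.23-fold lower in Myc ko than in Myc wt (0.0395), and Ep300, a coactivator of Myb, fell 1.21-fold and 1.23-fold with Myc (0.0224 and 0.0109). The block changed these counts in GFP ko alone, where 2 of the 8 were lower in place of 1.

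Of 8 relatives and corepressors of Gfi1, Gfi1b, its relative in erythroid and megakaryocyte cells, was 2.07-fold higher in GFP ko and 2.15-fold higher in Myc ko than in wt (limma adjusted p = 0.0264 and 0.0174). Kdm1a, the histone demethylase that Gfi1 recruits, was 1.38-fold lower in GFP ko and 1.31-fold lower in Myc ko (0.00314 and 0.00637), and it rose 1.22-fold and 1.28-fold with Myc in wt and ko (0.0213 and 0.00636). Ehmt2, a histone methyltransferase, was 1.38-fold and 1.36-fold lower in ko (0.00427 and 0.00452). With the block 2 of the 8 rose with Myc in each genotype, and 3 were lower in Myc ko than in Myc wt. Of 7 known Myb target genes measured, Myc itself rose with the Myc virus, which carries it, and Bcl2, an inhibitor of cell death, fell 1.62-fold in wt and 1.89-fold in ko (0.0274 and 0.00632). Cd34 fell 2.02-fold in ko (0.0136), and Gfi1, which is on this list too, is described above. With the block 1 of the 7 rose and 2 fell in wt, and 2 rose and 3 fell in ko. These counts include Myc among the genes that rose and Gfi1 among those that fell, in each genotype. In the Zfx comparisons 1 was lower with each virus, Myc itself with the GFP virus and Gfi1 with the Myc virus.

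Factors of other myeloid branches were counted next, beside the same shares of all genes, with the Myc virus first. Of 22 measured factors of monocytes, granulocytes and dendritic cells, Id2 fell 2.32-fold in wt (limma adjusted p = 0.0151), and Lmo4 and Ikzf1 fell 1.35-fold and 1.23-fold in ko (0.00702 and 0.0157), and with the block 2 fell in wt and 7 in ko. Klf4, a monocyte factor, had log2 differences of 0.05 in wt and -0.0022 in ko. Of 12 erythroid, megakaryocyte and mast cell factors, 2 rose in wt and 3 in ko, and with the block 4 rose and 1 fell in wt and 5 rose and 2 fell in ko. Those that rose without the block were Klf1, the erythroid factor, which rose 1.82-fold and 2.88-fold (0.0438 and 0.00272), Ldb1, which rose 1.21-fold and 1.26-fold (0.0139 and 0.00457), and in ko Bcl11a, which rose 1.65-fold (0.0426). The mean of Klf1 in GFP wt, 149, lies near the array medians of 127 to 137, which limits its fold in wt. None of the 13 measured stem and progenitor factors passed with the virus without the block, and with it 1 fell in wt, and 1 rose and 3 fell in ko.

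With the Zfx label, Mef2c was 1.84-fold higher in GFP ko and 1.96-fold higher in Myc ko (limma adjusted p = 0.0291 and 0.0155), and Lmo4 was 1.30-fold lower in Myc ko (0.0231). Among erythroid, megakaryocyte and mast cell factors, Zfpm1 was 2.88-fold higher and Klf1 2.05-fold higher in Myc ko (0.0184 and 0.0281), and Gata2, a mast cell and progenitor factor, was 2.63-fold lower there (0.0252). Hoxa9, a progenitor factor, was 2.68-fold lower in GFP ko and 2.58-fold lower in Myc ko (8.40e-04 and 9.71e-04). Its means of 172 in GFP ko and 138 in Myc ko lie near the array medians of 127 to 137, which limits these folds. Meis1, a partner of Hoxa9, was 3.31-fold higher in Myc ko (0.00659). Hoxa5 also passed as lower in both comparisons (0.00570 and 0.0447), at mean intensities of 51.3 to 63.3 that lie below every array's median, so no fold is given. With the block 5 of the 22 monocyte, granulocyte and dendritic cell factors were higher in GFP ko, and 4 were higher and 2 lower in Myc ko. Of the 12 erythroid, megakaryocyte and mast cell factors 4 were higher and 1 lower in GFP ko and 5 higher and 1 lower in Myc ko, and of the 13 stem and progenitor factors 3 were higher and 3 lower in each.

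**Figure D5:**
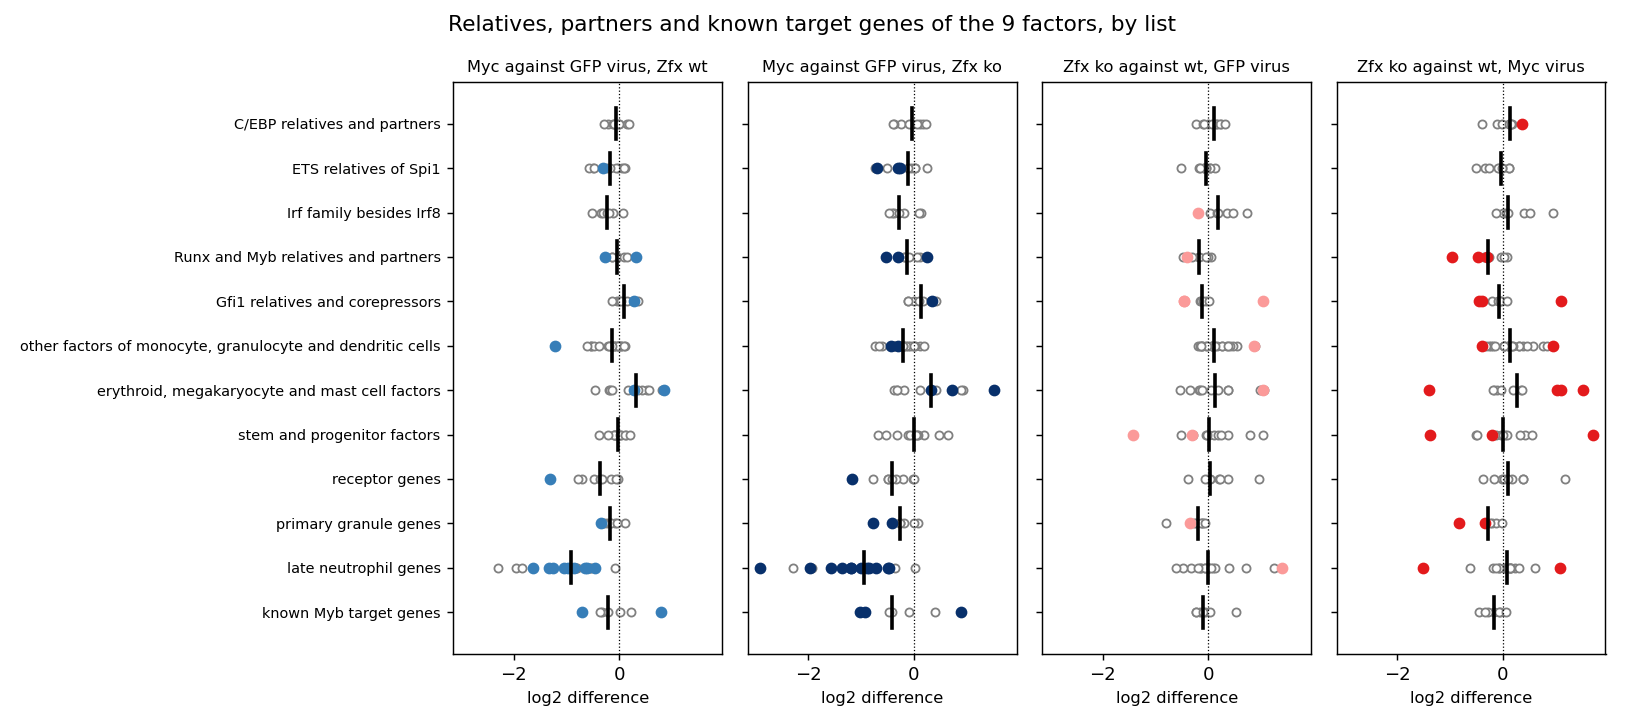
Log2 differences of the measured genes of 12 lists (rows) in the 4 comparisons (horizontal axes); each circle is a gene, filled where its adjusted p was under 0.05, and the black bar is the list's median. Late neutrophil genes lie furthest to the left in both Myc comparisons, with medians of -0.92 and -0.94, and their medians in the Zfx comparisons are 0.0053 and 0.087.

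The late neutrophil, primary granule and receptor lists moved differently in the Zfx comparisons, where the shares of all genes given above apply. Of the 18 late neutrophil genes, Mmp8, a collagenase of neutrophil granules, was 2.64-fold higher in GFP ko and 2.13-fold higher in Myc ko (limma adjusted p = 0.00314 and 0.0105), and Chil3 was 2.86-fold lower in Myc ko (0.00126). Of the 8 primary granule genes, Cst7 was 1.26-fold lower in GFP ko and 1.77-fold lower in Myc ko (0.0397 and 2.73e-04), and Ms4a3 was 1.26-fold lower in Myc ko (0.0200). Elane, the neutrophil elastase gene, differed by -0.33 on the log2 scale in Myc ko (0.0633), and it passed with the replicate block (0.0212). With the block 2 late neutrophil genes were higher in each and 1 lower in Myc ko, and 3 primary granule genes were lower in GFP ko and 5 in Myc ko. None of the 9 receptor genes passed in either Zfx comparison without the block, and 1 and 2 were higher with it. Csf1r was among these, 1.95-fold higher in GFP ko and 2.27-fold higher in Myc ko (0.0308 and 0.0106 with the block, 0.369 and 0.205 without).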

How the data were processed

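RNA of 12 samples was measured on gene arrays from 200 ng each. Linear intensities that the authors deposited came from RMA, per the submitters' processing notes. RMA includes quantile normalization, which forces arrays to a common distribution, which can shift values where many genes move one way. The number of arrays limits the precision. The probe annotation lists 1 symbol for 21789 probe sets, several for 1621 and none for 12146. Groups were taken from sample titles. Log2 values of 1 probe set per gene (the highest mean; 19938 genes, no filter on dim ones, no pseudocount) were fitted with a mean for each of 4 groups in limma 3.58.1 (R 4.3.3, lmFit and eBayes, 8 residual degrees of freedom), with Benjamini-Hochberg adjustment over all genes. The fit was tested on simulated data.

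As a check of pairing, each array's deviations from its group's mean were correlated with those of other groups' arrays. For the 18 pairs sharing a number, r was 0.40 to 0.85. For the rest it ran from -0.70 to 0.35, with a median of -0.42. Deviations within a group cancel out, so positive values for pairs sharing a number push the rest towards negative values. That median is therefore no separate evidence of pairing. The highest value of the rest lay close to the lowest of the pairs sharing a number. The replicate number was also fitted as a block, and the block value is given where it changes a call. The pairing comes from the numbers in the titles and this check, since the labels name no litter or day. Shares of variation are sums of squares of log2 values.

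The members and all lists were chosen with earlier results of these data known. The members are named throughout, with Zfx and Myc as checks, up to 4 genes per list and comparison with the lowest p past the threshold, and the 3 genes most like each member. Elane, Mpo, Csf1r, Csf3r, Klf4 and Ets1 were named after their values were seen. Alternatives were the block, a second quantile normalization, median centring, a trended prior, a filter on dim genes, all probe sets, only the groups compared, and leaving out each array or, chosen after seeing the data, each replicate number. Promoters are RefSeq windows for 6 of the 9 genes. No probe positions and no genome were used here.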

Additional observations from a re-analysis of the deposited data

How the results depend on the processing

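With the replicate numbers as a block, on which the pairing rests, 4 members in wt and 7 in ko passed with the Myc virus, 1 in GFP and 3 in Myc with the Zfx label, and 4082, 4959, 2440 and 2808 genes; the interaction gave 1 gene. The block ended no member's call. Arrays centred on their medians left 1 member in the Myc comparison of wt (Spi1 lost, adjusted p = 0.0690), and fits of only the groups compared left 0 (Cebpd 0.0638, Spi1 0.0686), with 1418 genes in the Myc comparison of ko and 562 in the Zfx comparison with the Myc virus. In ko, Cebpe was lost with a second quantile normalization (0.0541) and with only the groups compared (0.112); in wt, it passed with only genes above the median (0.0498). Leaving out an array gave 0 to 2 members (838 to 1599 genes) for Myc in wt, 0 to 4 (1395 to 2440) in ko, 0 (410 to 567) for Zfx with GFP, 0 (578 to 935) with Myc and 0 (0 to 4) for the interaction. Leaving out replicate 1, 2 or 3 of all groups, an alternative chosen after seeing the data, gave 0, 1 and 0 members (395, 1629 and 1 gene) for Myc in wt, 1, 5 and 0 (728, 2254 and 115) in ko, 1, 0 and 0 (239, 390 and 110) for Zfx with GFP and 0, 0 and 0 (457, 539 and 121) with Myc. Uncalled log2 differences changed sign without an array for Cebpa (-0.46 to 0.056), Irf8 (-0.95 to 0.33) and Runx1 (-0.016 to 0.13) with Myc in wt, for Cebpb (-0.13 to 0.32) and Cebpe (-0.20 to 0.022) with Zfx and GFP, and for Cebpb (-0.17 to 0.19) and Irf8 (-0.21 to 1.01) with Zfx and Myc. In the interaction this held for Cebpb (-0.31 to 0.14), Cebpd (-0.17 to 0.19), Cebpe (-0.12 to 0.094), Spi1 (-0.11 to 0.051), Gfi1 (-0.33 to 0.078), Irf8 (-0.65 to 0.63) and Myb (-0.24 to 0.025). Without replicate 1 of all groups, Runx1 with Myc in ko became 0.0048, and the interactions of Cebpd and Cebpe -0.16 and 0.088. Without replicate 2, Cebpb with Zfx and Myc became -0.019 and the interaction of Irf8 0.14. Without replicate 3, Runx1 with Myc in wt became -0.037, Cebpe with Zfx and GFP 0.035 and the interaction of Irf8 0.11. Omissions leave fewer arrays; for the other lost calls the cause was not tested. No other alternative turned a member's sign.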
